A study of Homo sapiens with 18 samples.

Results

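The replication-dependent histone genes of human chromosome 6 were examined through ChIP-seq peak summits from lung adenocarcinoma cells. A summit is the single base at which a peak is highest. Members were chosen by position alone: every summit in the hg19 windows 6:26010001-26290000 (window 1) and 6:27090001-27870000 (window 2), which hold the genes named HIST1. The 13 summit lists held 1061 such summits of 947675 deposited. H3K4me3 summits of the 4 conditions that lay within 1000 bp of each other were joined into elements, and 82 of 39776 elements fell in the windows, 23 in window 1 and 59 in window 2.

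Each condition was profiled for H3K4me3, a mark of active promoters, for H3K27ac, a mark of active promoters and enhancers, and for H3K4me1, a mark found at enhancers and on the flanks of promoters. TGFb is the H2087-LCC line after 4 days of 100 nM TGF-β1, the dose as the labels give it. SO1 is the line labelled H2087-LCC-SO1, whose making the labels do not describe. H2030 is a separate lung adenocarcinoma line. LCC is H2087-LCC without the cytokine, a form of the H2087 line whose suffix the labels do not explain. The H2087 cultures carried hydrocortisone, selenite, insulin, transferrin, albumin and EGF, which the H2030 medium lacked, so line and medium cannot be told apart. There was 1 library per condition and mark except LCC H3K27ac with 2, so differences between conditions had no replicate check and no test was made. The 5 input libraries were not analysed here, so DNA copy number was not measured.

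Replication-dependent histone genes supply the linker histone H1 and the core histones H2A, H2B, H3 and H4 that package newly copied DNA. They are transcribed mainly in S phase, lack introns, and give transcripts that end in a stem-loop instead of a poly(A) tail. Their largest human cluster lies on chromosome 6p22, where many near-identical copies stand side by side, and their transcription is concentrated in nuclear histone locus bodies. How reads that match several copies were placed is not given in the sources used here, and its part in any summit below was not tested.

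In RefSeq's gene order for GRCh38.p14, the run from H1-1 to H4C8 held 31 replication-dependent histone genes, with 4 H1, 4 H2A, 8 H2B, 7 H3 and 8 H4 genes. The run from H2BC11 to H2BC17 held 21, with 1 H1, 7 H2A, 6 H2B, 3 H3 and 4 H4 genes. Inside the second run, between H2AC12 and H2BC13, lay 77 other entries. Of these 51 were tRNA genes, 5 were protein-coding genes and none was a replication-dependent histone gene. The first run held 2 further protein-coding genes. Strand was read from RefSeq promoter entries, which 47 of the 52 genes had. Among these 47, an H2A and an H2B gene stood next to each other 10 times. In 8 of these the genes pointed away from each other, so that the same stretch lay upstream of both. Pairs with a gene lacking an entry were not counted. GRCh38.p14 coordinates cannot be set beside the hg19 summits, so no summit was assigned to a gene. An element in the windows may therefore belong to a gene that is not a histone gene.

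Promoters of the cluster carry short sequence elements, some of which differ in frequency between histone classes. They are shown because promoters of this kind are what the windows were drawn around. The 250 bases upstream of the start, from RefSeq (GRCh38.p14), are given for the first gene of each class that had an entry. Capitals mark ATTTGCAT (the octamer, read by OCT1), CCAAT (read by NF-Y), TATAAA (the TATA box) and AAACACA (the H1 box), on either strand.
H1-1, linker histone H1, GRCh38.p14 chr6:26017788-26018037, minus strand: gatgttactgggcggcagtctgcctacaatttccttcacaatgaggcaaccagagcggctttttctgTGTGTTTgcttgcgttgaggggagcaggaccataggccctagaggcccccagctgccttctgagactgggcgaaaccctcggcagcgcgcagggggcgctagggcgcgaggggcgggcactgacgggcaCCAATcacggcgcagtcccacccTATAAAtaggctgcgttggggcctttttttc
H2AC4, core histone H2A, GRCh38.p14 chr6:26033619-26033868, minus strand: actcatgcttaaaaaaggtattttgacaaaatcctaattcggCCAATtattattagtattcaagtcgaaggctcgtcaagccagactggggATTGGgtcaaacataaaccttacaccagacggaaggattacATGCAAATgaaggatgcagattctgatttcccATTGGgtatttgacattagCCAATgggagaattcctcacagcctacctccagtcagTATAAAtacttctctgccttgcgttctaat
H2BC3, core histone H2B, GRCh38.p14 chr6:26043714-26043963, minus strand: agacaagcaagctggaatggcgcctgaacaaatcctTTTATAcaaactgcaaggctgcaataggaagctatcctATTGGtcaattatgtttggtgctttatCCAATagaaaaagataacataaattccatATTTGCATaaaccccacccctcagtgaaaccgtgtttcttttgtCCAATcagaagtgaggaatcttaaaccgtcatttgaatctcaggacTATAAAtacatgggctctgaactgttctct
H3C1, core histone H3, GRCh38.p14 chr6:26020201-26020450, plus strand: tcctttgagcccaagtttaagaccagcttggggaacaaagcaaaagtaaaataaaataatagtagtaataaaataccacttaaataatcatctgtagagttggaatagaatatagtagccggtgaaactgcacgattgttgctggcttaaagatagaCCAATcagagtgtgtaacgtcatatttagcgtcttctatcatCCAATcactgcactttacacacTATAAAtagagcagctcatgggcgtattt
H4C2, core histone H4, GRCh38.p14 chr6:26027284-26027533, minus strand: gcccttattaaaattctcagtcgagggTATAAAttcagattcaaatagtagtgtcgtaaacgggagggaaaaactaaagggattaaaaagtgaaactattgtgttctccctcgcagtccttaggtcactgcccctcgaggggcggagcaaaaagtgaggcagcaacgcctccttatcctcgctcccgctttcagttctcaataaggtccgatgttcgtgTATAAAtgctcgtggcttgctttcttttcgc
Of the 52 genes, 47 had an entry. The octamer was found in 8 of 10 H2A and 11 of 14 H2B promoters but in 0 of 5 H1, 1 of 8 H3 and 0 of 10 H4 promoters. It occurred in 1.63% of all 35116 promoter entries of the same length and in 42.6% of the histone entries. The H1 box was in 5 of 5 H1 promoters and in no other histone entry, against 4.82% of all entries. CCAAT was in 85.1% of the histone entries, against 32.0% of all, and was rarest in H4 promoters with 3 of 10. TATAAA was in 68.1%, against 10.7% of all. A match says only that these letters stand in the 250 bases searched, and matches were counted separately for each motif and gene. The same match could thus count for both an H2A and an H2B gene that point away from each other.

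The windows were dense in H3K4me3 in every library. H3K4me3 gave 58 summits in TGFb, 60 in SO1, 63 in H2030 and 60 in LCC. In window 1 that was 6.07 summits per 100 kb in TGFb, 6.07 in SO1, 4.29 in H2030 and 5.71 in LCC. In window 2 it was 5.26, 5.51, 6.54 and 5.64 per 100 kb in the same order. H2030 was thus the lowest library in window 1 and the highest in window 2. Among the 100 kb tiles of the genome that held any H3K4me3 summit of a library, between 1.97% and 6.24% held as many. Neighbouring elements lay a median of 8542.5 bp apart in window 1 and 9144 bp in window 2, against 27909 bp over all elements. The widest stretch without any element was 6:26234738-26284521 (49784 bp) in window 1 and 6:27356918-27440464 (83547 bp) in window 2.

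The other marks gave 68 H3K27ac summits in TGFb, 48 in SO1, 77 in H2030 and 51 and 65 in the LCC replicates, and 121 H3K4me1 summits in TGFb, 125 in SO1, 139 in H2030 and 126 in LCC. H3K27ac was dense in window 1, with 10.4 summits per 100 kb in TGFb, 6.07 in SO1, 7.14 in H2030 and 7.14 and 8.93 in the LCC replicates. In window 2 it gave 5 per 100 kb in TGFb, 3.97 in SO1, 7.31 in H2030 and 3.97 and 5.13 in LCC. Of the 100 kb tiles that held any H3K27ac summit of the library, 34.5% in TGFb, 40.4% in SO1, 12.5% in H2030 and 38.7% and 26.0% in LCC held as many as window 2. In SO1 the density of window 2 was below the 4.5 summits per 100 kb between the windows. Depth is unknown because the files hold no read counts. Each summit has the authors' score, on a −log10 scale of p or q that rises with depth. It is therefore also given as a percentile within its own list, where 50 is the median of all summits of that library. Lists held between 25691 and 143843 summits.

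H3K4me3 was shared across conditions at much of the cluster. An element counted as marked when a summit lay within 1000 bp. Of the 82 elements, 58 were marked in TGFb, 60 in SO1, 62 in H2030 and 60 in LCC. That was 70.7% (95% Wilson interval 60.1% to 79.5%) in TGFb, 73.2% (62.7% to 81.6%) in SO1, 75.6% (65.3% to 83.6%) in H2030 and 73.2% (62.7% to 81.6%) in LCC. Outside the windows the shares were 70.9%, 70.8%, 63.6% and 64.4% in the same order, and only that of H2030 lay outside its interval. All 4 conditions marked 40, or 48.8% (38.3% to 59.4%), against 41.3% outside the windows, which lies inside that interval. At these 40 sites the median H3K4me3 score was 426 in TGFb, 446 in SO1, 440 in H2030 and 356 in LCC, at percentiles of 65.0, 63.6, 63.3 and 61.5. H3K27ac accompanied 30 of the 40 in TGFb, 29 in SO1, 36 in H2030 and 25 and 29 in the LCC replicates. Intervals here and below cover counting error only, and neighbouring summits are not independent of each other.

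The single-condition elements were mostly those of H2030. H3K4me3 was found in H2030 alone at 17 elements, in TGFb alone at 2, in SO1 alone at 1 and in LCC alone at 1. Most of the 17 were weak, with a median score of 56.2 and a range of 4.95 to 451. The 17 made up 27.4% (17.9% to 39.6%) of the 62 elements with H2030 H3K4me3, against 25.2% outside the windows. H2030 lacked 14 of the 54 elements that TGFb, SO1 and LCC all marked, or 25.9% (16.1% to 38.9%), against 25.6% outside. By presence or absence of an H3K4me3 summit at any score, H2030 thus differed over both windows about as often as elsewhere in the genome. The calls against LCC given below also set a score condition. They gave H2030 H3K4me3 gains at 7.32% of window elements, against 1.42% of all, and losses at 11%, against 2.25%.

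The share of elements that H2030 marked differed between the windows. H2030 marked 12 of 23 elements (52.2%, 33.0% to 70.8%) in window 1 and 50 of 59 (84.7%, 73.5% to 91.8%) in window 2. Outside the windows it marked 63.6%, which lay inside the interval of window 1 and below that of window 2. Elements that H2030 alone marked were 2 of its 12 in window 1 (16.7%, 4.70% to 44.8%) and 15 of its 50 in window 2 (30%, 19.1% to 43.8%), and they are part of the window 2 share. In window 1 it lacked 6 of the 13 elements common to TGFb, SO1 and LCC (46.2%, 23.2% to 70.9%), and in window 2 it lacked 8 of 41 (19.5%, 10.2% to 34.0%). The intervals of this share, which leaves out elements that H2030 alone marked, overlapped. TGFb, SO1 and LCC marked 17, 17 and 16 of the 23 elements in window 1 and 41, 43 and 44 of the 59 in window 2. The comparison of windows was chosen after the values were seen.

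**Figure D1:**
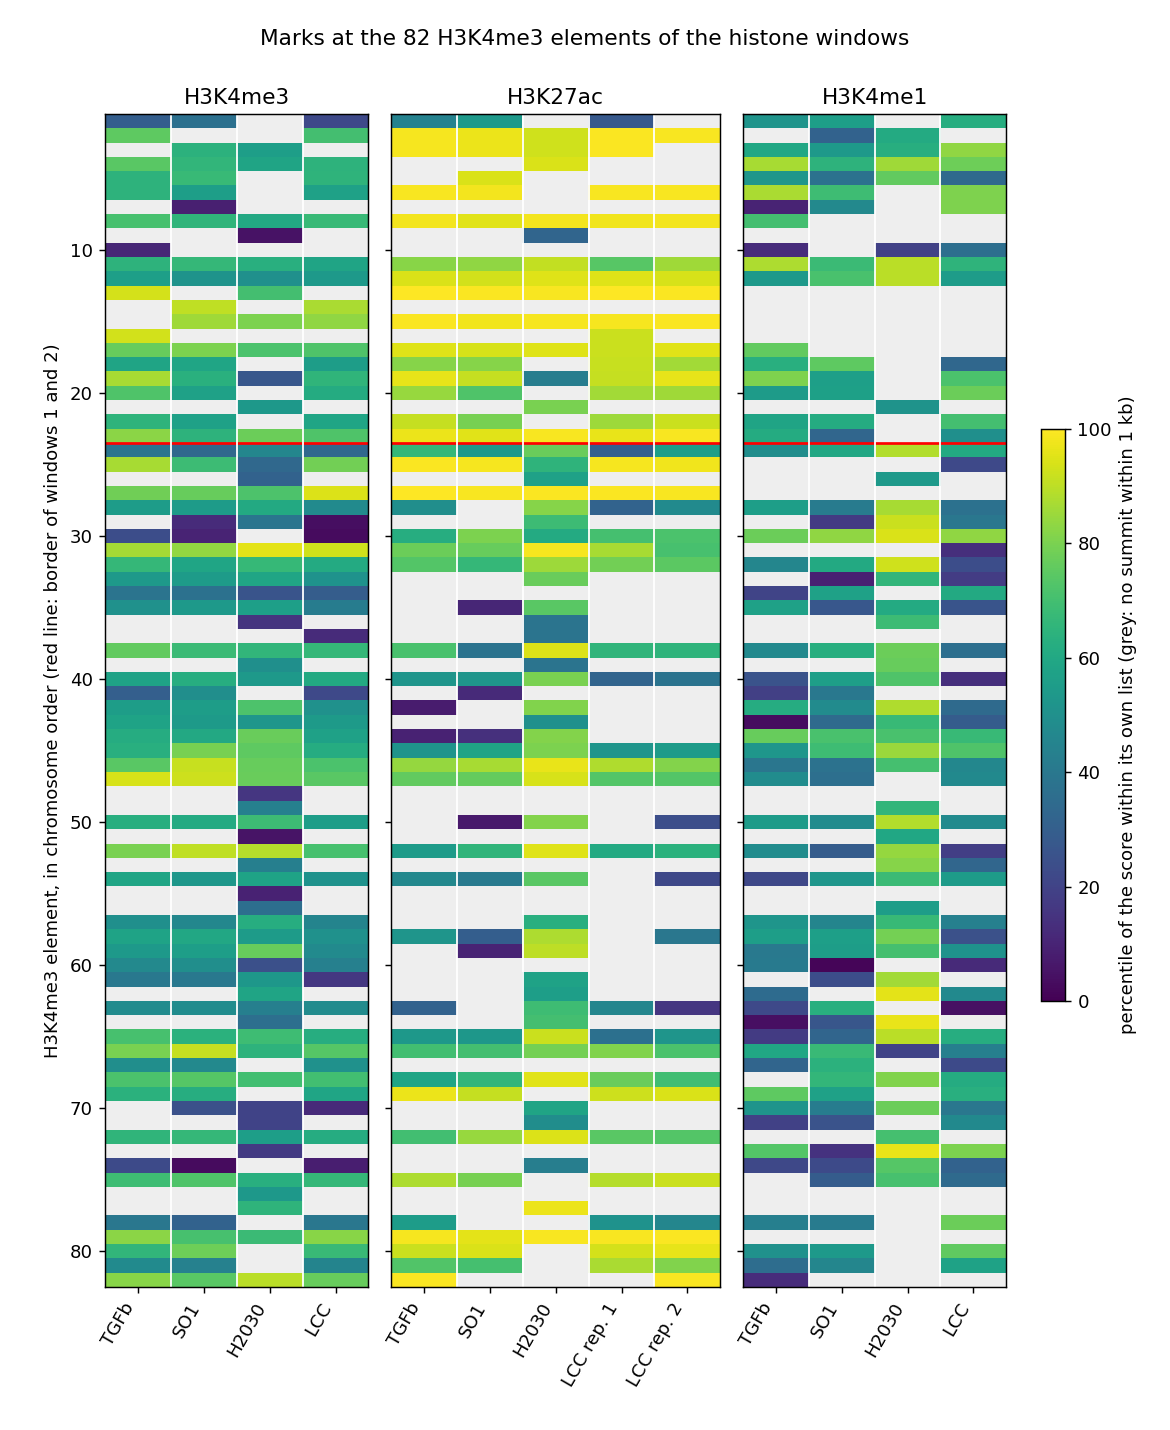
Percentile of the score within its own list for H3K4me3, H3K27ac and H3K4me1 at the 82 elements, in chromosome order from top to bottom, with 1 column per library and grey where no summit lay within 1 kb. The red line parts the 23 elements of window 1 from the 59 of window 2; H2030 is marked by H3K4me3 at 12 of the upper and 50 of the lower elements.

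The elements with the highest LCC H3K4me3 scores were marked nearly everywhere. Of the first 10, TGFb marked 8, SO1 10 and H2030 9. The highest, at 6:27114334-27114354, had H3K4me3 scores of 528 in TGFb, 549 in SO1, 483 in H2030 and 554 in LCC. Its H3K27ac scores were 478 in TGFb, 443 in SO1, 426 in H2030 and 224 and 290.5 in the LCC replicates, at percentiles of 98.9 to 99.6, and it had no H3K4me1 summit within 1000 bp in any condition. The site was thus near the top of every H3K27ac list.

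The next, at 6:27145338-27145425, had H3K4me3 scores of 565 in TGFb, 580.0 in SO1, 576 in H2030 and 543 in LCC. Its H3K27ac percentile was 98.6 in H2030, above TGFb at 77.4, SO1 at 76.8 and the LCC replicates at 86.8 and 70.8. At 6:27100291-27101138 H2030 was instead the lowest: H3K4me3 stood at percentile 33.7 in H2030, against 87.0 in TGFb, 68.4 in SO1 and 78.7 in LCC. H3K27ac there stood at percentile 64.9 in H2030, against 99.4 in TGFb, 98.7 in SO1 and 98.4 and 97.9 in LCC. These are descriptions of single libraries at sites picked by the LCC score alone.

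At 5 further sites of the 10 every condition had an H3K4me3 score above 400. At 6:27805869-27806833 scores were 547 in TGFb, 517 in SO1, 467 in H2030 and 496 in LCC. At 6:27447007-27447026 they were 603, 620.0, 501 and 459 in the same order, and at 6:27661959-27662022 they were 535, 615, 448 and 456. Such scores stand side by side here but rank summits only within their own list. At 6:27860674-27861574 they were 545, 536, 544 and 471, and at 6:26284522-26285424 they were 548, 459, 502 and 448. At 6:27447007-27447026 the H3K27ac percentile was 93.8 in H2030, against 76.0 in TGFb, 76.2 in SO1 and 73.2 and 73.4 in LCC. H2030 was the only one of the 5 H3K27ac libraries to place that site in its highest 10%. Of the 10 sites, 4 had H3K4me1 in TGFb, 3 in SO1, 1 in H2030 and 5 in LCC, and none was in the highest 10% of its list. Among all H3K4me3 summits of the windows at or above the list median, H3K4me1 lay within 1000 bp of 65.9% in TGFb, 72.7% in SO1, 63.4% in H2030 and 66.7% in LCC, against 70.4%, 71.9%, 68.5% and 70.0% outside.

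TGFb differed from LCC at few elements of the cluster. A gain required a summit in the other condition whose score reached the median over all elements marked by that list, and no LCC summit of the same mark. A loss was the mirror case. For H3K27ac, TGFb gained 0 of 82 elements and lost 0, where 0.397% of all elements were called gained and 1.16% lost. For H3K4me3, TGFb gained 2 (2.44%, 0.671% to 8.46%) and lost 2, where 0.342% of all elements were gained and 0.327% lost. For H3K4me1, TGFb gained 1 and lost 0, where 2.98% were gained and 3.01% lost.

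The 4 H3K4me3 calls in TGFb were moves of a summit by under 2 kb. The element 6:26124633-26124690 had H3K4me3 scores of 599 in TGFb and 475 in H2030, while SO1 and LCC instead marked 6:26126218-26126232, with scores of 612 and 517. The LCC summit lay 1542 bp from the first element. Likewise TGFb marked 6:26158751 with a score of 598, while SO1, H2030 and LCC marked 6:26157024-26157069 with scores of 589, 512 and 501, which is 1682 bp away. H3K27ac at the last element was high throughout, with percentiles of 99.3 in TGFb, 97.7 in SO1, 98.6 in H2030 and 98.6 and 99.6 in LCC. When a call also required that no summit of the other side lay within 10 kb, an alternative added after the data were seen, no gain or loss of H3K4me3 or H3K27ac in TGFb was left. Over all elements the H3K27ac gains then came to 0.0603% and the losses to 0.093%, and the H3K4me3 gains to 0.0101% and the losses to 0%, so 0 of 82 is near the background.

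SO1 also differed from LCC at few elements. For H3K27ac it gained 1 of 82 elements and lost 0, where 0.623% of all elements were gained and 1.44% lost. For H3K4me3 it gained 1 and lost 1, where 0.44% were gained and 0.448% lost. For H3K4me1 it gained 0 and lost 0, where 3.17% were gained and 3.63% lost. The gained and the lost H3K4me3 element were neighbours: SO1 and H2030 marked 6:26022040-26022120, with scores of 454 and 366, and TGFb and LCC marked 6:26020913-26020971, with scores of 511 and 434. The nearest summits of SO1 and LCC were 1069 bp apart. The H3K27ac call at 6:26031951-26032059 rested on a SO1 summit with a score of 292. The nearest LCC summit lay 1482 bp from the element but only 639 bp from that SO1 summit, and scored 145 in LCC replicate 1. With the 10 kb condition no H3K27ac or H3K4me3 call was left in SO1, where over all elements the H3K27ac gains came to 0.151% and the losses to 0.219%, and the H3K4me3 gains to 0.0553% and the losses to 0.0226%. That count is near the background too.

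Fuller changes were not seen in the H2087 cells, and they were rare over all elements too. Of the 29 elements that carried all 3 marks in LCC, TGFb lost all 3 at 0 and SO1 at 0, where 0.0899% and 0.825% of such elements in the genome did. Of the elements with all 3 marks in TGFb (33) or in SO1 (34), 0 were free of LCC marks in both cases, where 0.199% and 0.866% were. The 95% Wilson interval of 0 in 29 reaches 11.7%, so these counts do not set the windows apart from the background.

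H2030 differed from LCC at more sites. For H3K4me3 it gained 6 of 82 elements (7.32%, 3.40% to 15.1%), where 1.42% of all elements were gained, and lost 9 (11%, 5.88% to 19.6%), where 2.25% were lost. For H3K27ac it gained 6 (7.32%, 3.40% to 15.1%), where 1.88% were gained, and lost 8 (9.76%, 5.03% to 18.1%), where 5.83% were lost. For H3K4me1 it gained 3 and lost 5, where 4.97% were gained and 10.5% lost. The H3K4me3 counts depended on the score condition. Without it H2030 gained 19 elements (23.2%) and lost 17 (20.7%), where 19.9% and 20.8% of all elements did, so the window shares were then near the background. H3K27ac gains without it were 22 (26.8%), where 9.99% of all elements were gained. H3K27ac losses without it were 9 (11%), where 15% of all elements were lost, so that share was then below the background. With the score condition, the 5.83% of all elements lay inside the interval of the H3K27ac losses.

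The strongest H3K4me3 gains in H2030 were at 6:27792152 and 6:26124633-26124690. The first had an H3K4me3 score of 451 and an H3K27ac score of 334 (percentile 97.1) in H2030, and neither mark in TGFb, SO1 or LCC. The nearest LCC H3K4me3 summit, in the element 6:27794537-27794611, was 2385 bp away. The element at 6:27636116 had a H2030 H3K4me3 score of 396 and no H3K4me3 in the H2087 libraries, and its H3K4me1 stood at percentile 96.0 in H2030, against 35.0 in TGFb, no summit in SO1 and 47.4 in LCC. H2030 alone also marked 6:27782327 with H3K4me3, with a score of 321.

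For H3K27ac, the highest H2030 gains after 6:27792152 fell on elements that all conditions marked with H3K4me3. At 6:26027137-26027214 the H3K27ac score was 280.2 in H2030 and no summit was found in the other H3K27ac libraries, while H3K4me3 scored 507 in TGFb, 473 in SO1, 397 in H2030 and 389 in LCC. At 6:27585320-27585482 H3K27ac scored 227 in H2030 and 4.80 in SO1, with no summit in TGFb or LCC. H3K4me3 there scored 210 in TGFb, 312 in SO1, 500.1 in H2030 and 156 in LCC. At 6:27342707-27342836 H3K27ac scored 141 in H2030 (percentile 81.5), against 4.16 in TGFb, 5.66 in SO1 and no summit in LCC. At 6:27263939-27264072 it scored 139 in H2030 (percentile 81.2), against 3.83 in TGFb and no summit in SO1 or LCC. The rule that called these sites required a high H2030 score and no LCC summit, so the contrast with LCC is a description.

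The highest-scoring H3K4me3 losses in H2030 included both kinds of change. At 6:26126218-26126232 and 6:26020913-26020971, described above, H2030 had a summit 1528 bp and 1149 bp away. At 6:26031951-26032059 H3K4me3 scored 424 in TGFb, 489 in SO1 and 392.5 in LCC, and the nearest H2030 summit was 4759 bp away. The element 6:27778030-27778057, where LCC H3K27ac scored up to 139, had its nearest H2030 H3K27ac summit at 2726 bp. With the 10 kb condition, 3 of the 9 H3K4me3 losses, 1 of the 6 H3K4me3 gains, 3 of the 8 H3K27ac losses and 4 of the 6 H3K27ac gains were left. Of all elements, 1.24%, 0.727%, 3.24% and 1.04% met these 4 rules.

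Some elements carried every mark in LCC and none in H2030. H2030 lost all 3 marks at 8 of the 29 elements that had them in LCC, or 27.6% (14.7% to 45.7%), where 14.6% of all such elements did. The count was 3 of 10 with marks sought within 500 bp, where 24.5% of all did, and 5 of 45 within 2500 bp, where 10.4% did. The 8 were 6:26045829-26045850, 6:26184243-26184278, 6:26195903-26195999 and 6:26234590-26234737 in window 1, and 6:27730410-27730451, 6:27794537-27794611, 6:27832641-27833300 and 6:27841001-27841079 in window 2. They are all named here because of this pattern. Their H3K4me3 scores had a median of 416 in TGFb (50.95 to 496), 336 in SO1 (29.9 to 555) and 312 in LCC (69.0 to 417). Their H3K27ac percentiles had a median of 87.9 in TGFb, 82.0 in the 7 that SO1 marked, and 89.6 and 89.1 in the LCC replicates.

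Of these elements, 6:27832641-27833300 was the farthest from any H2030 H3K4me3 or H3K27ac summit. Its H3K4me3 score was 437 in TGFb, 555 in SO1 and 417 in LCC, and its H3K27ac percentile was 91.9 in TGFb, 94.1 in SO1 and 93.7 and 96.3 in LCC. The nearest H2030 H3K4me3 summit was 25985 bp away and the nearest H3K27ac summit 23347 bp, although an H3K4me1 summit lay at 1918 bp. At 6:26045829-26045850 the H3K4me3 score was 421 in TGFb, 310.0 in SO1 and 303 in LCC, with H3K27ac at percentiles of 99.0 in TGFb, 98.3 in SO1 and 99.1 and 99.2 in LCC. H2030 had its nearest H3K4me3 summit there 10357 bp away, H3K27ac 3917 bp and H3K4me1 3120 bp. At 6:26234590-26234737 H3K4me3 scored 424 in TGFb, 339 in SO1 and 325 in LCC, and the nearest H2030 H3K4me3 and H3K27ac summits were 17233 bp and 17282 bp away. The weakest of the 8 by H3K4me3 score was 6:27794537-27794611, with H3K4me3 scores of 50.95 in TGFb, 29.9 in SO1 and 69.0 in LCC.

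A partial case lay between these sites. At 6:26189009-26189066 H2030 kept weak summits, with an H3K4me3 score of 23.5, against 567 in TGFb, 442 in SO1 and 398 in LCC. H3K27ac there stood at percentile 42.2 in H2030, against 96.4 in TGFb, 91.4 in SO1 and 91.1 and 96.2 in LCC. With its neighbours at 6:26184243-26184278 and 6:26195903-26195999, it formed a run of 3 consecutive elements that were low or absent in H2030 alone. The element was named after its values were seen.

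The reverse pattern had mostly lower H3K4me3 scores. Of the 35 elements with all 3 marks in H2030, 5 had no mark in LCC, or 14.3% (6.26% to 29.4%). Of all such elements 7.77% did, which lies inside that interval. These were 6:26217357, 6:27107241, 6:27205269, 6:27243391 and 6:27652196. Their H2030 H3K4me3 scores were 318, 35.4, 9.59, 241 and 57.5 in that order, so that only 1 of them scored above the H2030 list median of 247. At 6:26217357 the nearest LCC H3K4me3 and H3K27ac summits were 17380 bp and 17192 bp away, but at 6:27205269 the nearest LCC H3K4me3 summit was 1249 bp away. At 6:27652196 the H3K4me1 score of 50.8 in H2030 stood at percentile 96.6, against 4.09 in TGFb and 26.7 in SO1, and LCC had no summit within 1000 bp.

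H3K27ac was strong in parts of the cluster only. Summits above the 90th percentile of their own list, its highest 10%, were counted for each library. In the windows they made up 16 of 68 in TGFb (23.5%), 16 of 48 in SO1 (33.3%), 23 of 77 in H2030 (29.9%), and 18 of 51 (35.3%) and 18 of 65 (27.7%) in the LCC replicates. In window 1 they numbered 10 in TGFb, 10 in SO1, 9 in H2030 and 12 and 11 in LCC. The first 100 kb of window 2 had 2 in every library, and its last 180 kb had 4 in TGFb, 4 in SO1, 6 in H2030 and 4 and 5 in LCC.

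The middle 500 kb of window 2 stood apart. It held 0 such H3K27ac summits in TGFb, 0 in SO1, 6 in H2030 and 0 in both LCC replicates. Its borders were set after the values were seen. The highest H3K27ac percentile there was 84.1 in TGFb, 87.0 in SO1, 96.8 in H2030 and 88.0 and 81.3 in LCC. H3K27ac summits numbered 15 in TGFb, 17 in SO1, 31 in H2030 and 11 and 14 in LCC. H3K4me3 was not scarce in this stretch: it gave 22 summits in TGFb, 22 in SO1, 31 in H2030 and 23 in LCC, at median percentiles of 58.0, 58.1, 54.9 and 51.0. An H3K27ac summit lay within 1000 bp of 13 of 22 H3K4me3 summits in TGFb (59.1%), 15 of 22 in SO1 (68.2%), 23 of 31 in H2030 (74.2%) and 9 and 12 of 23 in LCC (39.1% and 52.2%). In RefSeq's order the run of tRNA genes with no replication-dependent histone gene lies in the inner part of the second gene run, but whether it covers this hg19 stretch was not tested.

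**Figure D2:**
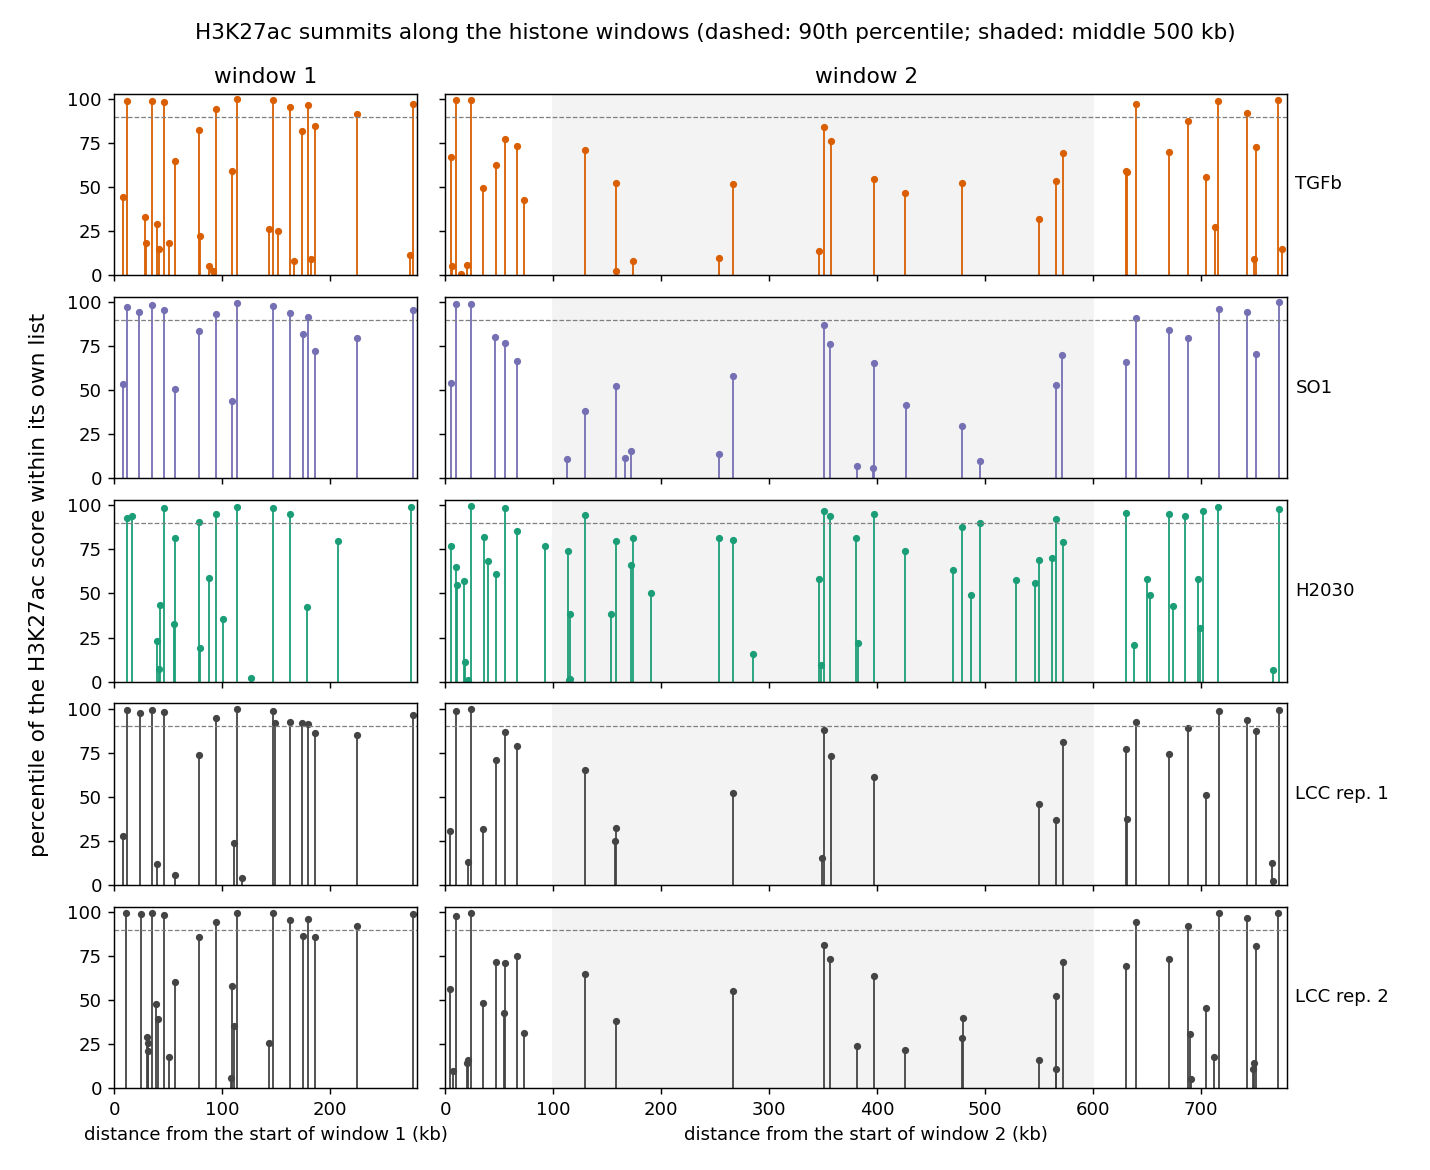
Percentile of each H3K27ac summit within its own list against its distance from the start of window 1 (left) and window 2 (right), with 1 row per library; the dashed line is the 90th percentile and the middle 500 kb of window 2 is shaded. In the shaded stretch 6 H2030 summits stand above the line and 0 in TGFb, SO1 and both LCC replicates.

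Some LCC summit positions were found again more often in the windows than elsewhere. The share outside lay below the 95% interval in the windows for H3K4me1 in all 3 conditions, for H3K4me3 in SO1, and for H3K27ac in H2030 with both LCC replicates and in TGFb with replicate 1 only. An LCC summit counted as found if a summit of the second condition lay at most 500 bp from it. The part of summit density in these shares was not tested. For H3K27ac, TGFb held 77.1% ± 4.63 (SD over the 2 LCC replicates) of LCC summits in the windows, against 63.4% ± 1.36 outside. With replicate 2 alone the TGFb share was 73.8% (62.0% to 83.0%), against 62.4% outside, which lay inside the interval. SO1 held 63.8% ± 9.66, against 56.2% ± 4.14 outside, a difference below the replicate SD in the windows. H2030 held 52.3% ± 6.48, against 34.8% ± 3.18 outside. The reverse share did not show this difference for H2030: LCC held 39.0% ± 1.84 of the H2030 summits in the windows, against 37.2% ± 2.45 outside. Of the TGFb summits LCC held 66.2% ± 8.32, against 52.5% ± 7.02 outside, and of the SO1 summits 76.0% ± 1.47, against 55.9% ± 4.61. The LCC replicates themselves found 78.4% of replicate 1 in replicate 2 and 61.5% of replicate 2 in replicate 1 in the windows, against 69.8% and 56.1% outside.

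For H3K4me1, TGFb held 75.4% (67.2% to 82.1%) of the LCC summits in the windows, against 62.1% outside. SO1 held 76.2% (68.0% to 82.8%), against 53.7%, and H2030 held 54.8% (46.1% to 63.2%), against 35.0%. All 3 intervals lay above the value outside. In reverse, LCC held 78.5% of the TGFb, 76.0% of the SO1 and 50.4% of the H2030 H3K4me1 summits in the windows, against 61.6%, 59.6% and 37.6% outside. For H3K4me3, TGFb held 83.3% (72.0% to 90.7%), against 90.3% outside, and H2030 held 66.7% (54.1% to 77.3%), against 62.7%. SO1 held 95% (86.3% to 98.3%), against 85.0%. The value outside lay within the interval in TGFb, where the windows had the lower value, and in H2030, but below it in SO1.

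**Figure D3:**
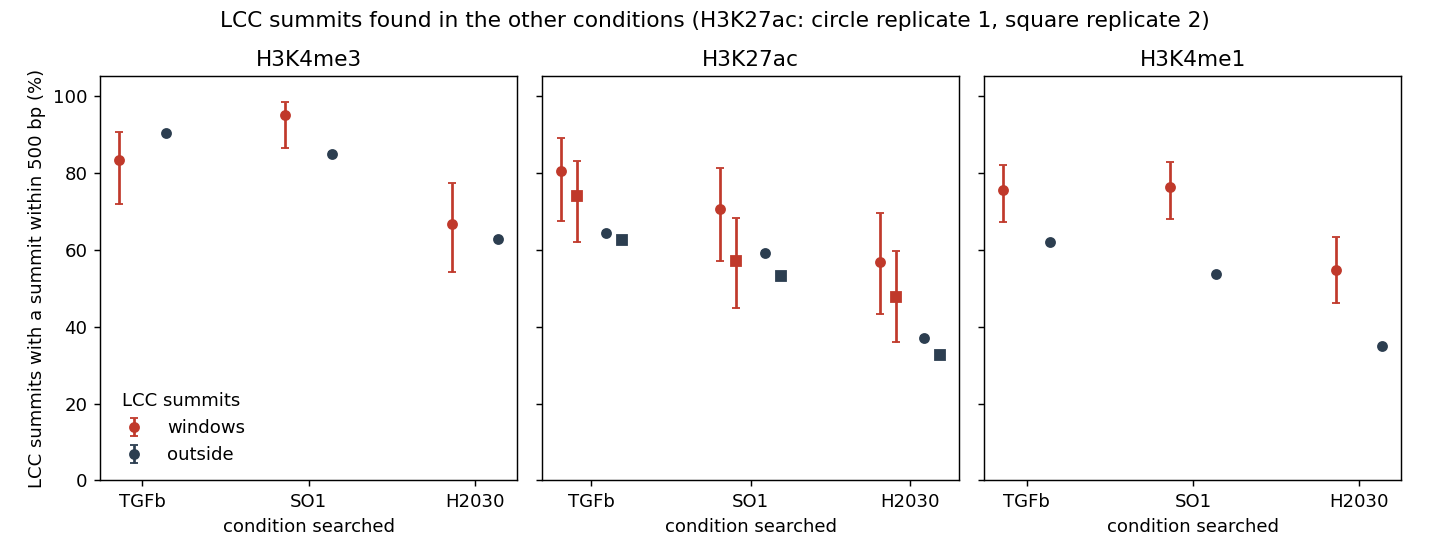
Percent of LCC summits of each mark that had a summit of TGFb, SO1 or H2030 within 500 bp, in the windows (red) and outside them (dark), with 95% Wilson intervals and, for H3K27ac, 1 point per LCC replicate. For H3K4me1 the shares in the windows were 75.4%, 76.2% and 54.8%, against 62.1%, 53.7% and 35.0% outside.

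H3K27ac in the windows was found mainly within 1000 bp of an H3K4me3 summit of any condition. The share of H3K27ac summits with no H3K4me3 summit of any condition within 1000 bp was 32.4% in TGFb (22 of 68), 8.33% in SO1 (4 of 48), 28.6% in H2030 (22 of 77) and 19.6% (10 of 51) and 32.3% (21 of 65) in LCC. Outside the windows it was between 50.2% and 61.4%. Elements also lay closer together in the windows, with median gaps of 8542.5 bp and 9144 bp, against 27909 bp over all elements. The part of this spacing in the lower share was not tested. Of such summits, the strongest in LCC replicate 1 was at 6:27862620 and lay 1046 bp from an H3K4me3 summit. It had an H3K27ac summit in each library within 1000 bp, with scores of 463 in TGFb, 529 in SO1, 356 in H2030 and 185 and 313 in LCC. The next, at 6:26033541, scored 145 and 277 in the LCC replicates and 292 in SO1, and TGFb and H2030 had none within 1000 bp. That SO1 summit is the one behind the H3K27ac call at 6:26031951-26032059. Of the other 4 named by the same rule, at 6:26049246, 6:26121069, 6:27111432 and 6:27439318, the highest scored 5.62 in LCC replicate 1.

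The converse share was higher than outside the windows in H2030 and not in TGFb, SO1 or LCC. H3K4me3 summits with an H3K27ac summit of their own condition within 1000 bp made up 72.4% (59.8% to 82.2%) in TGFb, against 73.5% outside the windows. In SO1 they made up 70.0% (57.5% to 80.1%), against 73.1%. In H2030 they made up 81.0% (69.6% to 88.8%), against 69.1%, the only condition in which the value outside lay below the interval. In LCC they made up 61.7% and 65.0% with the 2 H3K27ac replicates, against 68.6% and 72.7%. In window 1 all 12 H2030 H3K4me3 summits had H3K27ac.

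H3K4me1 ranked differently in H2030. The median percentile of the H3K4me1 summits in the windows was 72.3 in H2030, against 50.7 in TGFb, 48.1 in SO1 and 47.6 in LCC. Summits above the 90th percentile numbered 19 of 139 in H2030 (13.7%), against 0 of 121 in TGFb, 0 of 125 in SO1 and 2 of 126 in LCC (1.59%). In window 2 the median percentile was 72.7 in H2030, against 44.9 in TGFb, 42.5 in SO1 and 46.5 in LCC. In window 1 it was 62.8 in H2030, against 58.7 in TGFb, 56.6 in SO1 and 60.6 in LCC, so the gap in medians was narrow there. Summits above the 90th percentile in window 1 were still 8 of 39 in H2030, against 0 of 42 in TGFb, 0 of 42 in SO1 and 0 of 45 in LCC. H2030 was also the highest at the 40 elements with H3K4me3 in all 4 conditions, with a median H3K4me1 percentile of 79.3 in H2030 (27 marked), against 52.0 in TGFb (31), 54.1 in SO1 (32) and 43.7 in LCC (33).

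**Figure D4:**
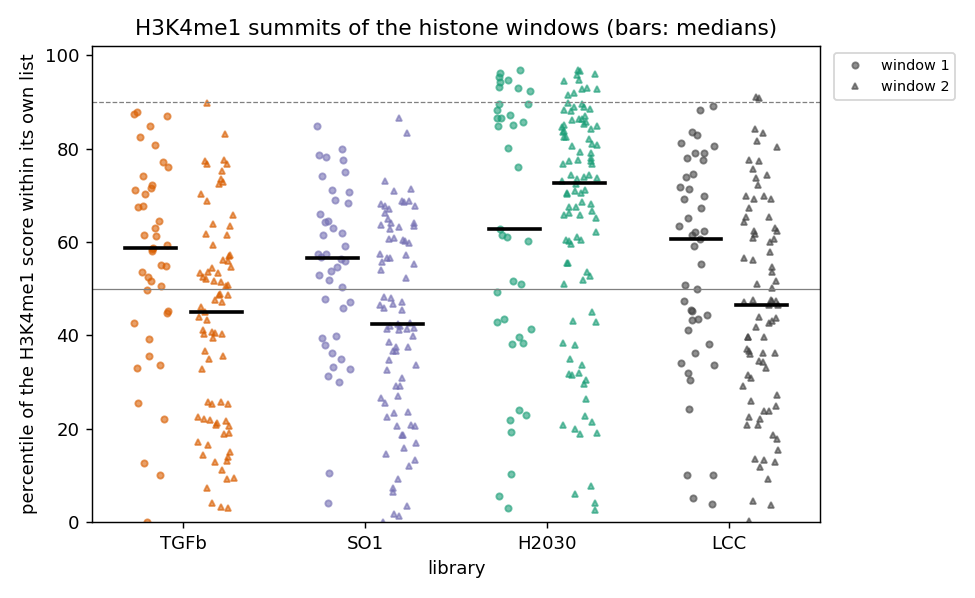
Percentile within its own list of every H3K4me1 summit of window 1 (circles) and window 2 (triangles), by library, with bars at the medians and lines at the 50th and 90th percentiles. In window 2 the H2030 median is 72.7 and the medians of TGFb, SO1 and LCC lie between 42.5 and 46.5.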

How the data were processed

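Per the labels' protocols, formaldehyde-crosslinked cells were immunoprecipitated for H3K27ac, H3K4me1 or H3K4me3, and the submitters' processing notes name Bowtie2, SAMtools, deepTools and hg19. Which program called the peaks is not stated there. Each deposited list gives 1 bp summits of 1 library with a score. The deposited score was taken to be −log10 of a p-value, or of a q-value, because the lowest, 1.30107, lies just above −log10 of 0.05. Such a score rises with depth, which the deposited lists do not hold, and it ranks summits only within a list.

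Only chromosomes 1 to 22 and X were kept, leaving out 29 to 238 summits per library. Elements, marks (within 1000 bp), shared summits (within 500 bp) and calls were computed over the whole genome with Python 3.11.15, numpy 2.4.6 and pandas 2.3.3, and the window rows were then read against all others. An element was lost when every LCC library of the mark marked it, the highest LCC score reached that library's median over marked elements, with no mark in the other condition. The calling code was run on simulated data whose gains and losses were planted to meet the rule, so false calls were not tested. Groups came from the sample titles. Sites named were the 10 highest in LCC H3K4me3, up to 5 called elements per comparison, mark and direction, the widest gaps, and 3 H3K27ac summits per window without H3K4me3. Sites named for losing or gaining all 3 marks were chosen after their values were seen. The windows, motifs and lists were chosen with earlier results of these data known. Alternatives changed distances, the score condition, a minimum score of 10, equal list lengths and the LCC replicates.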

Additional observations from a re-analysis of the deposited data

How the results depend on the processing

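Of 138 values of the main results under alternatives, 87 stayed within 1.5 times the main count, 1 SD or the main interval, and 51 moved. Of the 29 main results, 24 moved under at least 1 alternative. A change of direction was not scored. The cause of a move was not tested beyond what each setting changes by construction. With marks sought within 2500 bp, elements with H3K4me3 in all 4 conditions made up 62.2%. TGFb then lost H3K27ac at 1, where 0.92% of all elements did, and gained and lost H3K4me3 at 0, where 0.121% and 0.088% did. SO1 gained H3K27ac at 0, where 0.349% of all did, and gained and lost H3K4me3 at 0, where 0.191% and 0.148% did. H2030 gained H3K4me3 at 3 (3.66%), where 0.958% did, and lost all 3 marks at 5 of 45, where 10.4% did. Within 500 bp SO1 gained H3K27ac at 0, where 0.943% of all elements did. H2030 then lost all 3 marks at 3 of 10, where 24.5% of all such elements did. Without the score condition TGFb gained H3K27ac at 2 (2.44%) and lost H3K4me3 at 5 (6.1%), where 4.97% and 4.22% of all elements did. SO1 gained H3K27ac at 5 and lost it at 3, where 5.41% and 4.23% of all elements did, and gained and lost H3K4me3 at 2 each (2.44%), where 13.6% and 7.3% did. H2030 gained H3K27ac at 22, where 9.99% of all elements did. For H3K4me3 it had 19 gains and 17 losses, where 19.9% and 20.8% did. With no summit of the other side within 10 kb, TGFb gained and lost H3K4me3 at 0, where 0.0101% and 0% of all elements did. SO1 gained H3K27ac at 0, where 0.151% did, and gained and lost H3K4me3 at 0, where 0.0553% and 0.0226% did. H2030 lost H3K27ac at 3, gained H3K4me3 at 1 and lost H3K4me3 at 3, where 3.24%, 0.727% and 1.24% did. With scores of at least 10, H2030 gained H3K4me3 at 3 (4%), where 1.03% of all elements did. It gained all 3 marks at 3 of 30, where 6.64% of all such elements did. The share of LCC H3K27ac summits found was then 88.1% in TGFb, 84.3% in SO1 and 60.6% in H2030, that of LCC H3K4me1 summits in TGFb was 65.7%, and LCC H3K4me3 summits with H3K27ac made up 58.2%. Within 250 bp, LCC H3K27ac summits were found at 62.8% in TGFb, 51.0% in SO1 and 45.5% in H2030, and LCC H3K4me1 summits at 63.5%, 64.3% and 37.3%. Shares outside the windows were not computed for this distance or for scores of at least 10. Whether the higher shares in the windows hold at these settings was therefore not tested. H3K4me3 summits with H3K27ac within 500 bp made up 53.4% in TGFb, 50% in SO1 and 54.2% in LCC, and within 2500 bp 67.5% in LCC. Leaving out either LCC H3K27ac replicate gave 1 TGFb gain in both cases, 0 to 1 TGFb losses, 1 to 2 SO1 gains and 1 SO1 loss in both cases. Of all elements, TGFb then gained H3K27ac at 0.9% and 0.933% and lost it at 1.3% and 1.66%, without replicate 1 and 2 in turn. SO1 gained it at 1.37% and 1.19% of all and lost it at 1.59% and 1.77%.

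No paired analysis was possible because the only shared replicate numbers join LCC H3K27ac with LCC inputs, which have no summit list here. With 1 library per condition no difference could be set against replicate spread except through the 2 LCC H3K27ac libraries. Unknown depth limits every absent summit: a missing summit means that none passed the authors' threshold in that list. Windows of 82 elements leave wide intervals. Summits closer than the joining distance cannot be assigned to separate promoters, and reads shared by near-identical histone copies could not be followed.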

Other observations

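The 800 kb of chromosome 6 between the windows, which the rule leaves out, was less dense in H3K4me3 in every library. It held 32 H3K4me3 summits in TGFb, 29 in SO1, 30 in H2030 and 32 in LCC, or 4, 3.63, 3.75 and 4 per 100 kb. H3K4me1 gave 8.63 summits per 100 kb there in TGFb, 9.25 in SO1, 9.63 in H2030 and 8.50 in LCC. In window 2 H3K4me1 gave 10.1, 10.6, 12.8 and 10.4 per 100 kb in the same order of libraries.

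Combinations of marks were also counted at the 82 elements, with no test between conditions. H3K4me3 with H3K27ac and no H3K4me1 was found at 15 of 82 elements in H2030 (18.3%, 95% Wilson interval 11.4% to 28.0%), against 9 in TGFb, 8 in SO1 and 7 in LCC. Outside the windows that combination made up 10.9% of elements in H2030, 11.01% in TGFb, 10.1% in SO1 and 9.02% in LCC. H3K4me3 with H3K4me1 and no H3K27ac was found at 6 elements in H2030, against 13 in TGFb, 16 in SO1 and 15 in LCC. That was 7.32% (3.40% to 15.1%) in H2030, 15.9% (9.51% to 25.3%) in TGFb, 19.5% (12.4% to 29.4%) in SO1 and 18.3% (11.4% to 28.0%) in LCC. Outside the windows it was 11.8%, 11.6%, 12.2% and 10.4% in the same order, and the values of SO1 and LCC lay below their intervals.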
